A study of Mus musculus with 13 samples.

Results

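The 10 genes described here make the granule proteases, surface receptors, histamine and lineage factor of mast cells. They are Cpa3, Cma1, Mcpt4, Tpsb2 and Tpsab1, which encode proteases, Kit, Ms4a2 and Fcer1a, which encode receptors, Hdc, which encodes the histamine-forming enzyme, and Gata2, a transcription factor. Members were taken by name, as probes annotated to a single symbol, and each of the 10 had 1 probe, among 19938 genes with such a probe. Of the 10, 9 lay above a filter on low values and were among the 16322 genes tested, and Fcer1a lay below it. The measured material was back skin, taken whole from C57Bl6 males on postnatal day 30, when their hair follicles were growing (anagen). Lights were on for 12 h and off for 12 h, and tissue was taken at intervals of 4 h, the first at ZT2 and the last at ZT50, with ZT as the number of hours since the first lights on. Each of the 13 arrays carried RNA pooled from 3 mice. The dark pools were the 6 taken at ZT14, ZT18, ZT22, ZT38, ZT42 and ZT46, and the light pools were the 7 taken at ZT2, ZT6, ZT10, ZT26, ZT30, ZT34 and ZT50. No genotype beyond the strain and no treatment was named for any pool.

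Mast cells are long-lived immune cells of the dermis that sit near vessels, nerves and hair follicles. Their granules hold histamine and proteases bound to heparin-like proteoglycan, and these are released when allergen crosslinks IgE on the high-affinity IgE receptor or when other receptors are triggered. Growth and survival of the cells depend on stem cell factor, the ligand of Kit, and a clock within mast cells is known to set daily differences in IgE-driven reactions. In whole skin, fewer mast cells and less RNA per mast cell cannot be told apart.

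GATA factors direct several of these genes in mast cells, so the stretches just before 4 start sites are shown, 120 bases each and read on the gene's own strand. They are RefSeq sequence of build GRCm38.p6, with capitals on each match, on either strand, to AGATAA or AGATAG, or to either word with T as its first base. The stretches are chr3:20242182-20242301 (minus strand) for Cpa3, chr14:55944676-55944795 (minus) for Cma1, chr14:56062311-56062430 (minus) for Mcpt4 and chr19:11623720-11623839 (minus) for Ms4a2.
Cpa3: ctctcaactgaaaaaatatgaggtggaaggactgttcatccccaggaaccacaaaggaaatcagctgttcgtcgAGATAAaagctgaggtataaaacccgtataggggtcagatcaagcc
Cma1: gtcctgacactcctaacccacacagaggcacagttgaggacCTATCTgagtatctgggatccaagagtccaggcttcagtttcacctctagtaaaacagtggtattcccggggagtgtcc
Mcpt4: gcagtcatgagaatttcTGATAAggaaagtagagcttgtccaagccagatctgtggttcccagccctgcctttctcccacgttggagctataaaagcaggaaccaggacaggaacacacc
Ms4a2: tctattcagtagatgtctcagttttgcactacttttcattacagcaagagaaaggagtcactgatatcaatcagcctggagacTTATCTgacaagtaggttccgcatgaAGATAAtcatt

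RefSeq windows of 250 bases before to 50 after a start site were found for 8 of the 10 members, 10 windows in all, and Tpsb2 and Tpsab1 had none in the table used. A GATA word lay in the windows of 6 of the 8 members, Cpa3, Cma1, Mcpt4, Ms4a2, Fcer1a and Hdc, and in 29.8% of all 32851 windows. Kit and Gata2 held none in their windows. The match nearest the start site was in Ms4a2, 11 bases before it, and that of Cpa3 began 46 bases before it. The clock element CACGTG occurred in 0 of the 10 windows and in 7.15% of all windows, the looser CANNTG, which covers it, in 7 of 10 and 72.3%, and AGGTCA, a nuclear receptor element, in 0 of 10 and 16.3%. These are letter matches and no binding was measured. On the chromosomes, Cma1 and Mcpt4 lie in the chymase cluster of chromosome 14 with Cma2, Mcpt1, Mcpt2 and Mcpt9 between them, and Tpsb2 and Tpsab1 are direct neighbours on chromosome 17. Whether the probes of near-identical family members share signal was not tested.

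The arrays differed little in overall brightness, with medians between 440 and 483.2 intensity units, and any pair correlated at 0.978 to 0.996 over the genes tested. Among defining mast cell markers, Cpa3, Cma1, Mcpt4, Tpsb2, Kit and Ms4a2 were all above the filter, the 25th percentile of probe means, which stood at 180 intensity units. Of the basophil markers, Prss34 was above it (265 to 348 in dark pools, 215 to 290 in light pools), while Mcpt8 and Cd200r3 were below. The melanocyte markers Dct, Tyr, Tyrp1 and Pmel were above it as well, and Kit is also a gene of melanocytes. The 20 muscle markers summed to 62640 to 114900 in dark pools and 56190 to 115400 in light pools. The 10 liver markers summed to 7050 to 37170 in dark pools and 6698 to 11690 in light pools, the top being ZT46. No scan or labelling batch was named in the labels.

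Cpa3 encodes carboxypeptidase A3, the main exopeptidase of mast cell granules, and had the widest daily swing of the 9 tested members. On the first day its intensity was 2019 at ZT2, 2369 at ZT6, 2639 at ZT10, 3301 at ZT14, 2807 at ZT18 and 2533 at ZT22. On the second it was 2209 at ZT26, 2271 at ZT30, 2786 at ZT34, 2447 at ZT38, 2685 at ZT42 and 2928 at ZT46, and ZT50 gave 1954. The 3 pools taken 2 h after lights on were the 3 lowest of the 13, at 2061 ± 133 (SD, n = 3), and both pools of 6 h came next, at 2320 ± 69.7 (SD, n = 2). The means at 10, 14, 18 and 22 h were 2713, 2874, 2746 and 2730, and their ranges overlapped, so those times have no order beyond their spread. The pools of 14 h disagreed most, with 3301 at ZT14 and 2447 at ZT38.

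Cma1 and Mcpt4 encode proteases of the chymase family found in connective tissue mast cells, and Mcpt4 is the functional counterpart of human chymase. Cma1 read 453.9, 445.2, 492.2, 571.6, 486.2 and 505.8 from ZT2 to ZT22, then 478.7, 477.8, 501.7, 485.1, 491.1 and 539.5 from ZT26 to ZT46, and 403.2 at ZT50. Its highest pools were ZT14 and ZT46, both dark, and its lowest was ZT50. Mcpt4 read 1654, 1638, 1883, 2083, 1515 and 1759 from ZT2 to ZT22, then 1420, 1534, 1746, 1566, 1755 and 1799 from ZT26 to ZT46, and 1457 at ZT50. ZT14 was again the highest, followed by the light pool ZT10, and ZT26 was the lowest.

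The tryptases Tpsb2 and Tpsab1 are trypsin-like granule enzymes known to form tetramers held by heparin. Tpsb2 read 850.4, 856.1, 906.4, 1007, 852.7 and 817.9 from ZT2 to ZT22, then 816.6, 736.5, 890.1, 838.3, 858.4 and 897.8 from ZT26 to ZT46, and 710.2 at ZT50. Its highest pool was ZT14 and its lowest ZT50. Tpsab1 read 289.4, 307.7, 361.1, 325.2, 305.9 and 290.7 from ZT2 to ZT22, then 283.7, 262.9, 289.7, 339.7, 307.8 and 301.5 from ZT26 to ZT46, and 284.0 at ZT50. Tpsab1 was highest in the light pool ZT10, and its 3 pools of 2 h lay close together at 286 ± 3.23 (SD, n = 3). Across the 5 proteases, ZT14 was among the 3 highest pools for all 5, and ZT50 was among the 3 lowest for all 5.

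Among the receptors, Kit binds stem cell factor. It read 1490, 1468, 1391, 1305, 1682 and 1322 from ZT2 to ZT22, then 1432, 1542, 1459, 1266, 1471 and 1348 from ZT26 to ZT46, and 1466 at ZT50. Both pools of 14 h were low and the single highest pool was ZT18. Ms4a2, the signal-amplifying beta chain of the IgE receptor, ranged from 166.2 at ZT34 to 261.7 at ZT10, both light pools of the same time of day. The 6 dark pools of Ms4a2 stayed between 208 and 230. Fcer1a, the IgE-binding alpha chain, ranged from 83.2 at ZT22 to 145.4 at ZT46, below the filter in every pool.

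Hdc, histidine decarboxylase, the only enzyme that makes histamine in mammals, read 223.5, 274, 334.4, 329.8, 286.7 and 264.6 from ZT2 to ZT22, then 258.8, 240.7, 286.6, 273.3, 277.6 and 283.7 from ZT26 to ZT46, and 260.9 at ZT50. The high pair ZT10 and ZT14 belonged to the first day and had no equal on the second. Gata2, needed for mast cell identity, varied least, with a coefficient of variation of 5.31% against 14.96% for Cpa3. Its pools lay between 591 at ZT30 and 721 at ZT2.

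**Figure D1:**
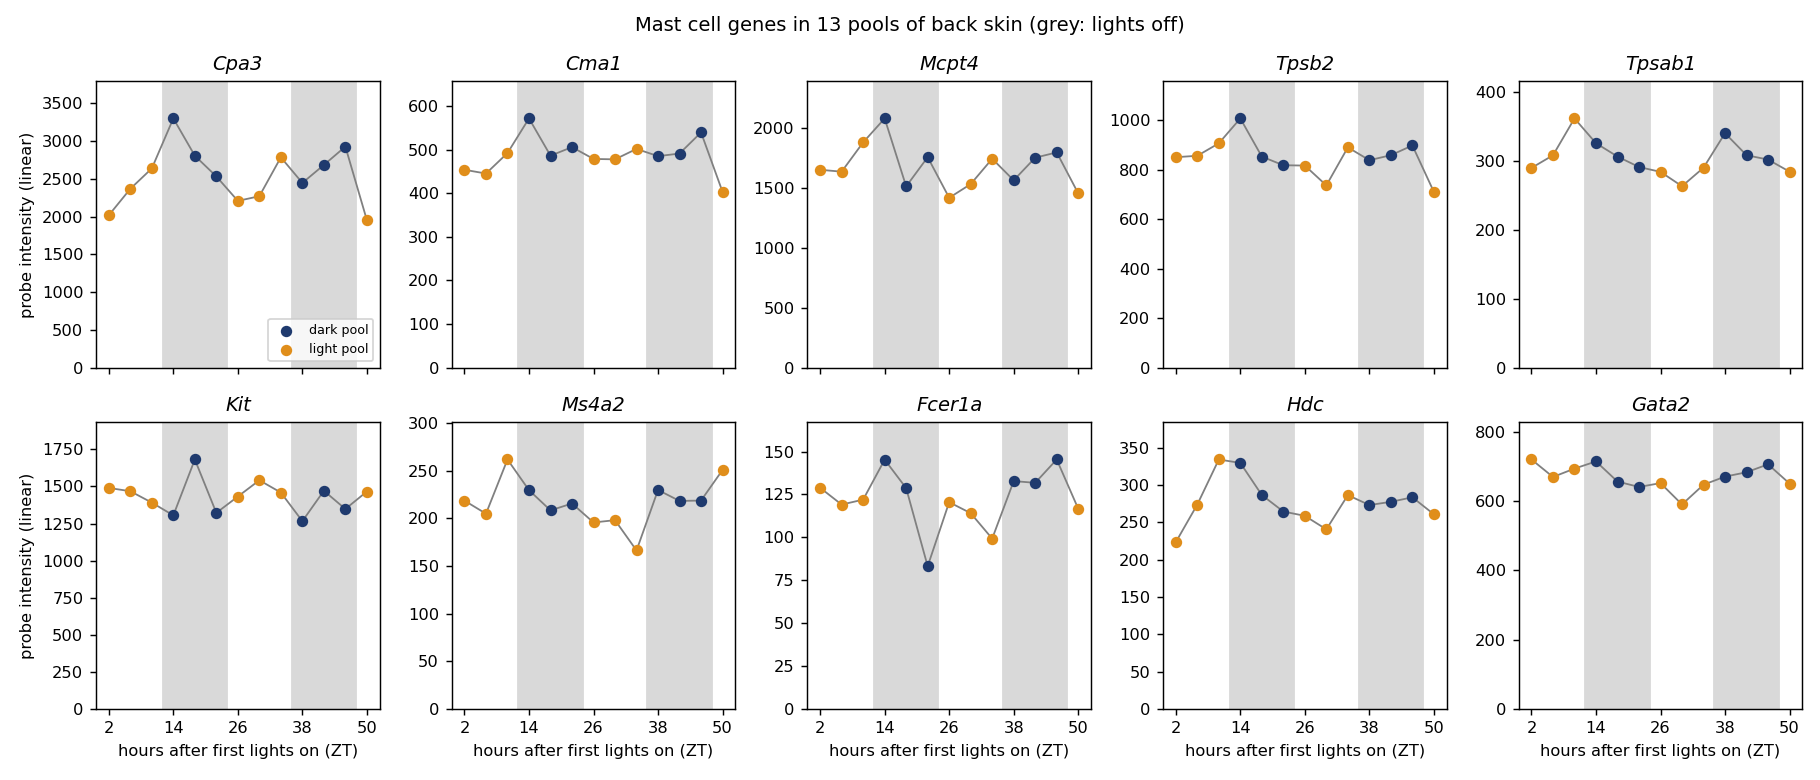
Probe intensity (linear, vertical axis from 0) of each of the 10 genes against hours after the first lights on (ZT), 1 point per pool of 3 mice, blue for dark pools and orange for light pools, with lights-off hours in grey. Cpa3 is lowest at ZT2, ZT26 and ZT50 and highest at ZT14, Kit is low in both pools of 14 h, and Fcer1a lies below 146 in every pool.

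The first question was whether these transcripts followed a 24 h wave. In limma on log2(intensity + 16), with Benjamini-Hochberg adjustment over 16322 genes, 0 of the 9 tested members passed an adjusted p of 0.05, where 0.141% of all genes did. At an unadjusted p under 0.05 there were 4 of 9, Cpa3, Hdc, Tpsab1 and Tpsb2, against 9.54% of all genes. Cpa3 had an amplitude, the height of the wave above its mean, of 0.22 ± 0.05 log2 (SE, 13 pools), a peak-to-trough fold of 1.36 and a fitted peak at 15.4 ± 1.0 h, and its limma adjusted p was 0.364. Hdc came next, with an amplitude of 0.14 ± 0.04, a fold of 1.22 and a peak at 13.8 ± 1.3 h (limma adjusted p = 0.484). The other 4 proteases shared amplitudes of 0.10 to 0.11 with peaks between 14.3 and 16.03 h. Kit (0.04), Ms4a2 (0.04) and Gata2 (0.05) lay below the median amplitude of all genes, 0.06, and their peak times carried errors of 2.8 to 5.3 h. In all, 8 of the 9 tested members had a fitted peak between 10 and 20 h, as had 7913 of all 16322 genes. Between 12 and 17 h it was 6 of 9 members and 24.9% of all genes. That narrower span closely frames the members' own peaks, so its counts are no test. The median amplitude of the members was 0.10. In simulated data of these 16322 genes, the same test found 48% of genes with an amplitude of 0.2 and 78% at 0.3. The simulation used independent noise for each gene and planted 50 genes at each amplitude, where 23 genes passed in the real data. Its shares may therefore be too high for these arrays.

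**Figure D2:**
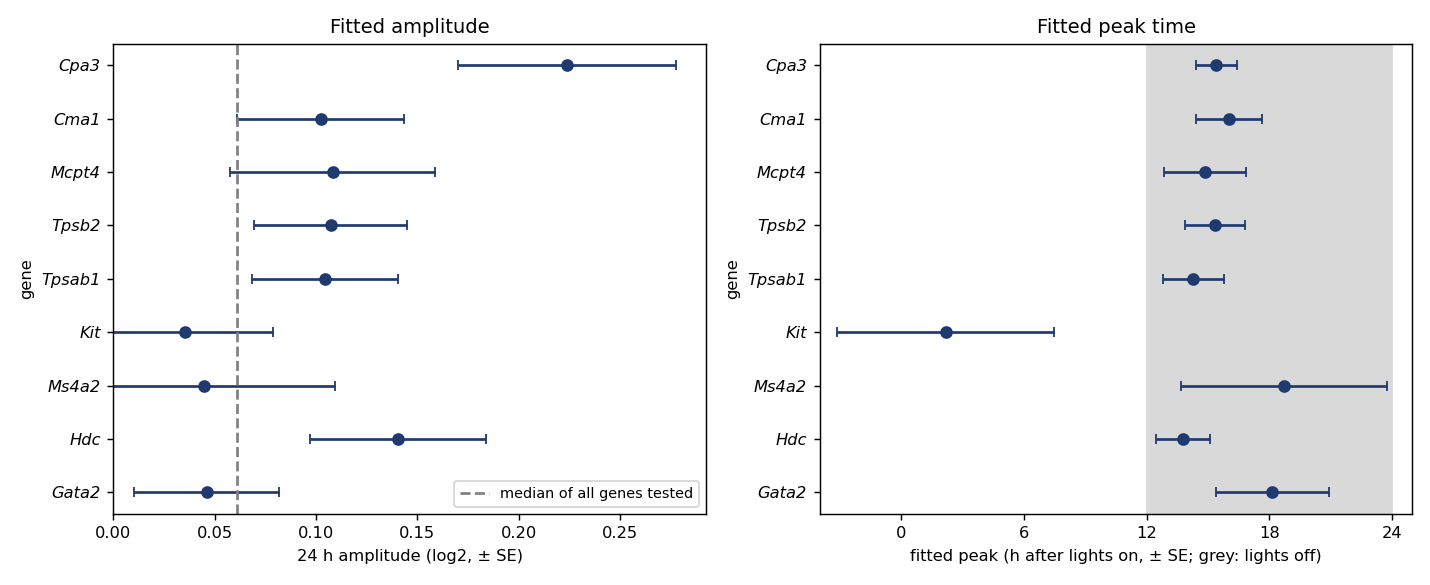
Left, the fitted 24 h amplitude in log2 of the 9 tested genes, with the median of all genes tested as a dashed line. Right, the fitted peak in hours after lights on, with lights-off hours in grey; points are estimates from 13 pools and bars are ± SE, which for Kit and Ms4a2 run past the left edge at 0. The 5 proteases and Hdc peak between 13.8 and 16.03 h, and Kit at 2.2 h with an SE of 5.3 h.

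The second comparison set the 6 dark pools against the 7 light pools. Here too 0 of 9 members passed in limma after Benjamini-Hochberg adjustment, where 0.00613% of all genes did. At an unadjusted p under 0.05 there were 2 of 9, Cpa3 and Cma1, both higher in the dark, against 12.4% of all genes in either direction and 7.56% higher in the dark. Cpa3 averaged 2783 ± 308 in dark pools (SD, n = 6) and 2321 ± 306 in light pools (SD, n = 7). Its lowest, median and highest pools were 2447, 2746 and 3301 in the dark, against 1954, 2271 and 2786 in the light. All 6 dark pools lay above the light median and 3 of the 6 above every light pool, yet the groups overlapped. The difference was 0.28 ± 0.09 log2 (SE, limma adjusted p = 0.353). Cma1 showed the same layout at a smaller size, 513 ± 35.1 in the dark (SD, n = 6) and 465 ± 33.6 in the light (SD, n = 7), a difference of 0.15 ± 0.06 log2 (SE, limma adjusted p = 0.362).

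Mcpt4 averaged 1746 ± 201 in dark pools and 1619 ± 164 in light pools, and Tpsb2 879 ± 68.3 in dark pools and 824 ± 74.8 in light pools (SD, n = 6 and 7). For both, the difference was under 1 SD of either group. Kit was the 1 tested member with a lower mean in the dark, 1399 ± 155 against 1464 ± 46.8 in the light, a difference of -0.07 ± 0.06 log2 (SE, limma adjusted p = 0.633). Its dark pools were spread wider, since ZT18 was the highest of all 13 pools and ZT38 the lowest. Dark and light pools overlapped for all 10 members. The dark-minus-light difference was above 0 in 8 of 9 tested members, as in 55.6% of all genes, with a median of 0.10 for the members and 0.01 for all genes. Its size depended on the scaling of arrays. Unscaled, it was 0.13 for Mcpt4, 0.12 for Tpsb2, 0.10 for Hdc, 0.09 for Tpsab1, 0.06 for Ms4a2 and 0.05 for Gata2. With arrays centred on their medians these were 0.09, 0.08, 0.06, 0.05, 0.01 and 0.01, and Cpa3 had 0.24, Cma1 0.11 and Kit -0.11. With quantile normalization they were 0.14, 0.12, 0.03, 0.02, -0.02 and 0.03, and Cpa3 had 0.29, Cma1 0.12 and Kit -0.06. Fcer1a, tested only with no filter over 19938 genes, had a difference of 0.10 ± 0.10 log2 (SE, limma adjusted p = 0.659).

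**Figure D3:**
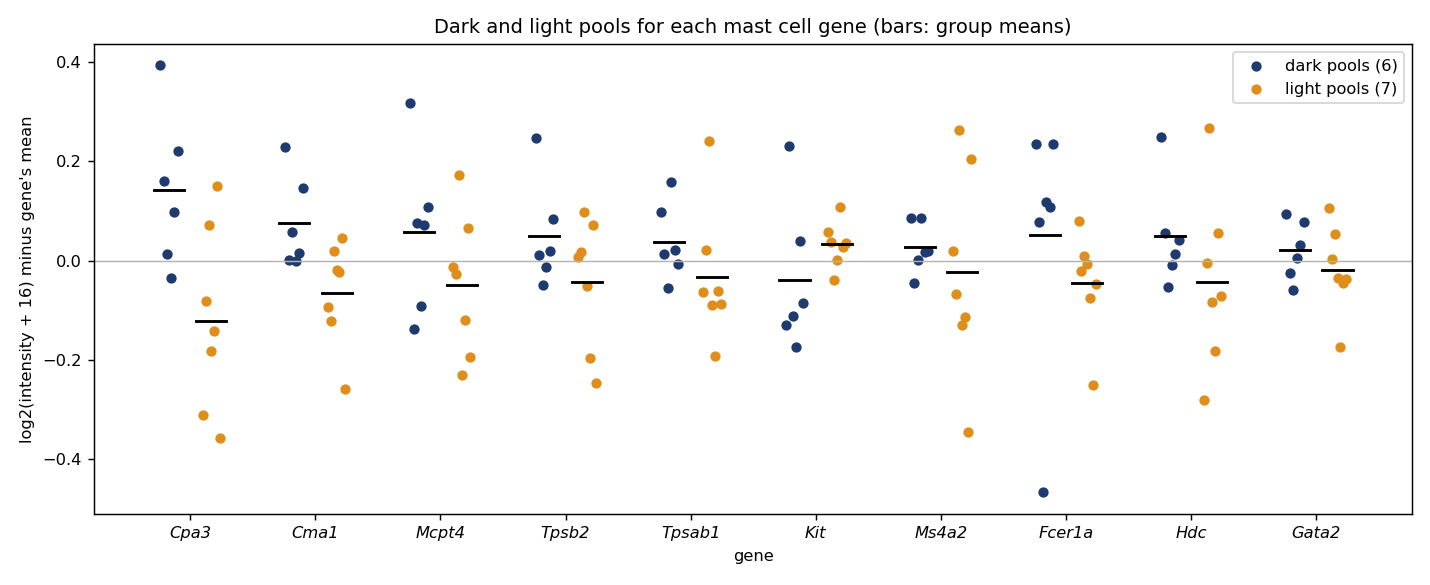
Each pool's log2(intensity + 16) minus the gene's mean over the 13 pools (vertical axis), for each of the 10 genes, with 6 dark pools in blue on the left, 7 light pools in orange on the right and bars at group means. For Cpa3 and Cma1 every dark pool lies above the light median and 3 of 6 lie above every light pool; the groups overlap for all 10 genes.

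Change across the 48 h and the repeat of the wave on the second day were tested as well. No member passed for a linear change (0 of 9, and 0 of 9 at an unadjusted p under 0.05, in limma), where 0% of all genes did and 8.8% had an unadjusted p under 0.05, and all 9 fitted slopes were below 0, as were 56.5% of all. The largest slope was that of Tpsb2, -0.09 log2 per 24 h (limma adjusted p = 0.604). For the wave of the first against the second day, 0 of 9 passed in limma, where 2.93% of all genes did, and Hdc alone had an unadjusted p under 0.05, which 26.6% of all genes had. The amplitude of Hdc was 0.25 on day 1, with a peak at 12.9 h, and 0.08 on day 2, with a peak at 16.7 h (limma adjusted p = 0.143). That of Cpa3 was 0.29 on day 1 and 0.12 on day 2, with peaks at 14.7 and 17.3 h (limma adjusted p = 0.318). With covariates for the muscle and adipocyte list means, Cpa3 passed this test (limma adjusted p = 0.0424), so 1 of 9 members did, where 14.2% of all genes passed under that setting. Over all genes the calls of this test were unstable. The 478 of the fit without covariates became 2320 with them, 5 with a 50th percentile filter, and 0 with quantile normalization, median centring or no filter. Leaving out 1 pool gave 0 calls for ZT2, ZT10, ZT14, ZT18, ZT22, ZT26, ZT30 or ZT34, 1 for ZT46, 531 for ZT6, 646 for ZT38 and 1582 for ZT42. Where 0 were called in limma, 3298 to 5661 genes had an unadjusted p under 0.05. In simulated data this test recovered 20% of genes whose waves differed by 0.4 log2. The noise there was independent for each gene, so that share need not hold for these arrays.

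From pool to pool, the clearest covariation was among the 5 proteases and Hdc, not among all members. Over all 45 pairs of the 10 members the median Pearson r was 0.35, and 33 pairs were positive. The 10 pairs among the 5 proteases had Pearson r between 0.32 and 0.88 over the 13 pools, all positive, with a median of 0.73. Cpa3 and Cma1 formed the closest pair (0.88), followed by Mcpt4 and Tpsb2 (0.81). The 2 tryptases, neighbours in the genome, had r = 0.63, and the 2 chymase family genes had 0.73. Hdc joined the proteases, with r between 0.56 and 0.78, and Gata2 had r = 0.71 with Tpsb2, 0.60 with Tpsab1 and 0.31 with Cpa3. The last was not stable, at 0.61 without ZT2, 0.14 without ZT14 and 0.015 with arrays centred on their medians. Ms4a2 stood apart from 4 of the 5 proteases (-0.14 to 0.20) and followed Tpsab1 (0.56). Kit was negative with all 9 others, from -0.49 with Mcpt4 to -0.04 with Fcer1a. Its r with Cpa3, -0.26, was -0.54 without ZT18, -0.08 without ZT14 and -0.01 with muscle and adipocyte covariates. All members of a pool share its array and its mice, so these values describe pools.

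**Figure D4:**
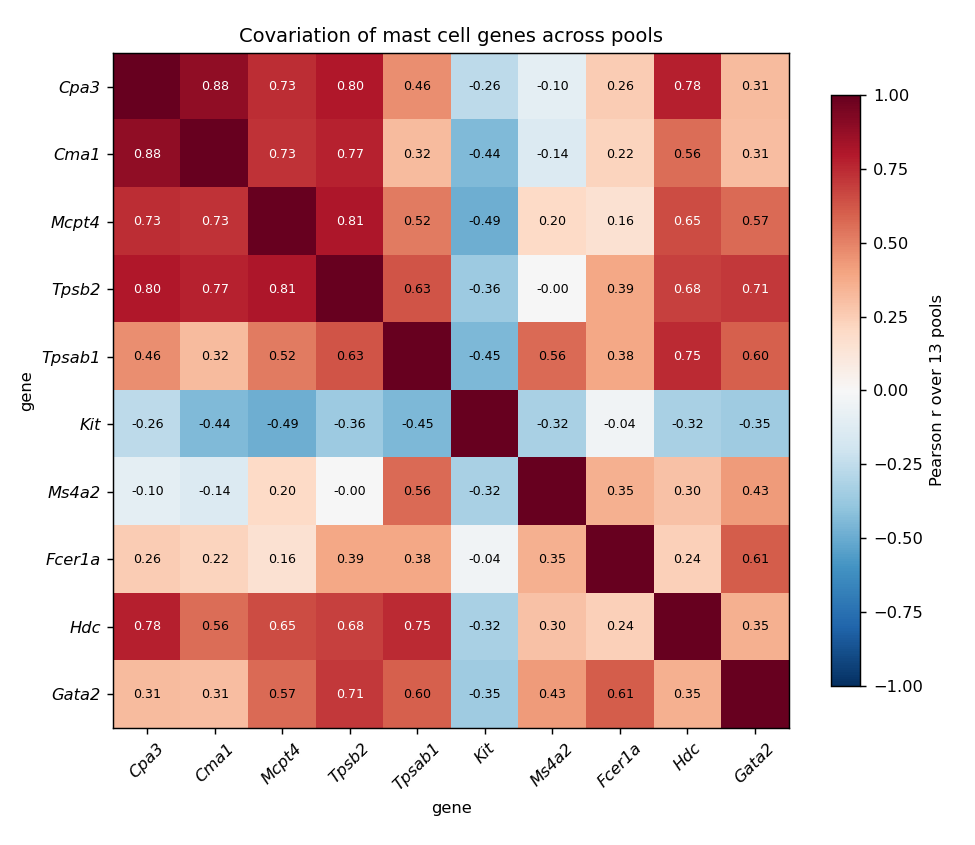
Pearson r over 13 pools between the log2 levels of each pair of the 10 genes, on a colour scale from -1 (blue) to 1 (red). The 5 proteases and Hdc are positive among themselves (0.32 to 0.88), and the Kit row is negative against all 9 others.

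Cpa3 served as the axis for a test across all genes. In limma, 0 of the 8 other members above the filter passed after Benjamini-Hochberg adjustment with a positive slope, where 0.0551% of 16321 genes did, and 4 of 8 had an unadjusted p under 0.05 (Cma1, Tpsb2, Hdc and Mcpt4), against 7.31% of genes. With a negative slope it was 0 of 8 at either threshold, against 0.00613% of genes after adjustment and 2.46% at an unadjusted p under 0.05. Ordered by r with Cpa3, Cma1 ranked 7 of 16321, Tpsb2 57, Hdc 97 and Mcpt4 174. Tpsab1 ranked 2036 and Gata2 4454, while Ms4a2 (11564) and Kit (13649) lay in the lower part. The median r of these 8 members with Cpa3 was 0.60, and that of all genes was 0.11. As one of 9 relations computed over 13 pools, that of Cma1 had r = 0.88 (permutation p = 0.0001) and Spearman rho = 0.87 (permutation p = 0.00037), with limma adjusted p = 0.117 over all genes. Without the 2 pools farthest from the median of Cpa3, ZT14 and ZT50, r was 0.76 (permutation p = 0.00664, 11 pools).

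Within dark pools alone Cma1 and Cpa3 had r = 0.85 over 6 pools, within light pools 0.79 over 7, and 0.82 once the 24 h wave and linear time were taken out of both. With wave and time taken out in the same way, r with Cpa3 was 0.72 for Tpsb2, 0.64 for Mcpt4 and 0.59 for Hdc. It was 0.11 for Gata2, 0.03 for Fcer1a, -0.13 for Kit and -0.32 for Ms4a2. Hdc had r = 0.78 (permutation p = 0.00201), rho = 0.84 (permutation p = 0.00056) and limma adjusted p = 0.185, with 0.92 in the dark, 0.74 in the light and 0.76 without ZT14 and ZT50. Tpsb2 had r = 0.80 (permutation p = 0.00109), rho = 0.80 (permutation p = 0.00167) and limma adjusted p = 0.185, with 0.94 in the dark and 0.70 in the light, and its r was 0.55 without those pools (permutation p = 0.0758). Mcpt4 had r = 0.73 (permutation p = 0.00429), rho = 0.65 (permutation p = 0.0184) and limma adjusted p = 0.230, with 0.71 in the dark and 0.72 in the light, and its r was 0.50 without them (permutation p = 0.12). Because ZT14 and ZT50 were chosen as extremes of Cpa3, leaving them out narrows its range, which by itself lowers r. The drop therefore cannot show that these relations depend on those pools. With each single pool left out in turn, r was 0.71 to 0.90 for Tpsb2 and 0.60 to 0.85 for Mcpt4. Tpsab1 (r = 0.46, permutation p = 0.113, and rho = 0.56, permutation p = 0.0494) lost its positive sign once the wave and linear time were taken out (-0.14). For Kit (r = -0.26, permutation p = 0.396, and rho = -0.29, permutation p = 0.344), Ms4a2 (-0.10, 0.758, and 0.04, 0.905), Fcer1a (0.26, 0.402, and 0.43, 0.141) and Gata2 (0.31, 0.299, and 0.30, 0.324), the same 4 quantities, r, its permutation p, rho and its permutation p, gave no relation past 0.05. Without ZT14 and ZT50, r was 0.34 for Tpsab1, -0.04 for Kit, 0.0049 for Ms4a2, 0.05 for Fcer1a and 0.08 for Gata2. With quantile normalization and with median centring, in that order, r was 0.28 and 0.27 for Tpsab1 and -0.31 and -0.35 for Ms4a2. It was 0.77 and 0.82 for Cma1, 0.78 and 0.72 for Tpsb2, and 0.72 and 0.66 for Mcpt4. Hdc had 0.66 and 0.71, Kit -0.32 and -0.33, and Gata2 0.18 and 0.015.

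**Figure D5:**
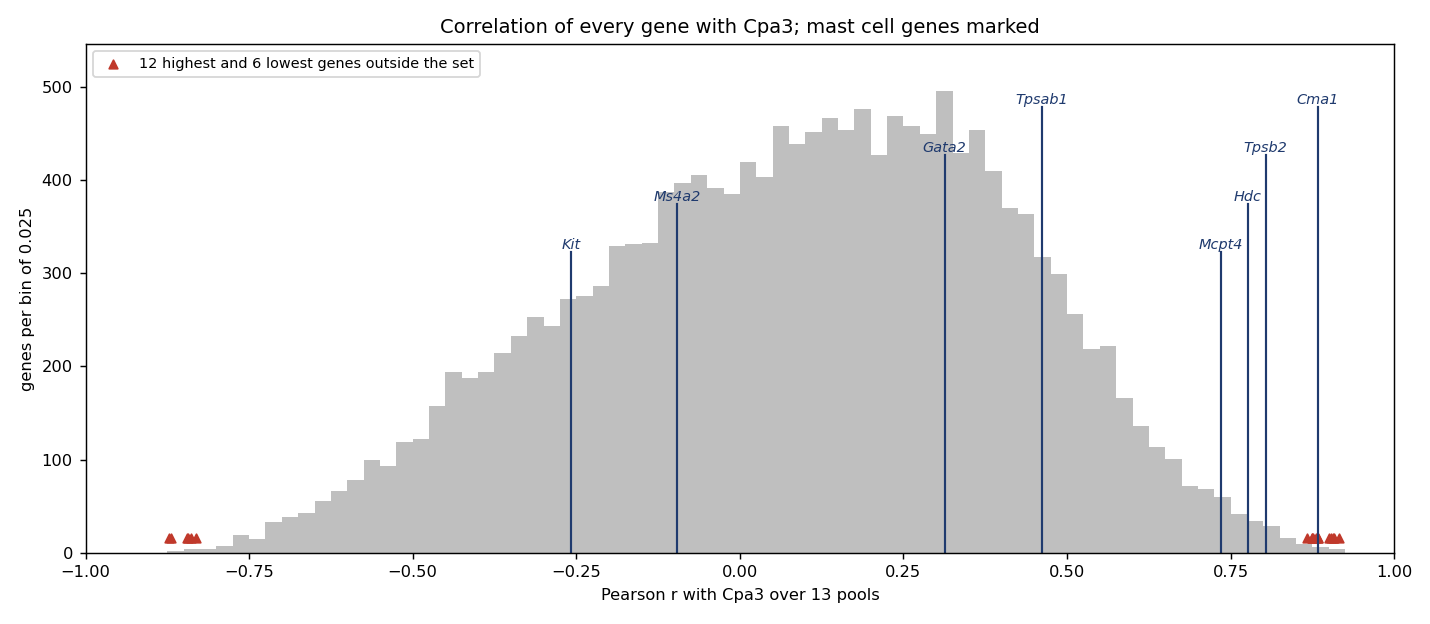
Number of genes (vertical axis, bins of 0.025) by Pearson r with Cpa3 over 13 pools, with the 8 other tested members as labelled lines of differing height for legibility only and the 12 highest and 6 lowest other genes as red triangles. Cma1, Tpsb2, Hdc and Mcpt4 lie between 0.73 and 0.88, and Ms4a2 and Kit lie below 0.

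By r over the 13 pools, Cma1 (0.88) was the member most like Cpa3, and 6 genes that are not members stood above it. With the members left out, the highest was Aldh3a1, an aldehyde dehydrogenase (0.92), followed by Pik3r1, a regulatory subunit of PI3 kinase (0.91), Zfp94 (0.91), the homeobox factor Alx4 (0.90) and the retinaldehyde dehydrogenase Aldh1a1 (0.90). Sfi1, the vasopressin receptor Avpr1a, Rgs20, the alcohol dehydrogenase Adh1, Negr1, the flavin monooxygenase Fmo2 and the adenylate cyclase Adcy1 lay between 0.87 and 0.88. At the other end stood the potassium channel subunit Kcne1 (-0.87), B4galnt3 (-0.87), Agpat3 (-0.85), the interleukin 4 receptor Il4ra (-0.84), the cornified envelope gene Sprr1b (-0.84) and the Wnt agonist Rspo4 (-0.83). After Benjamini-Hochberg adjustment in limma, 9 genes had a positive slope on Cpa3, Aldh1a1, Aldh3a1, Adh1, Alx4, Fmo2, Fmo1, Cyp2f2, Negr1 and Pik3r1, with adjusted p from 0.0193 to 0.0430, and Kcne1 had a negative one (0.0430). The 9 had fitted peaks between 13.9 and 16.5 h and Kcne1 at 4.1 h. Genes called for following Cpa3, with its peak at 15.4 h, tend to share its timing, so these peaks are no separate result. With the wave and linear time taken out, r with Cpa3 ran from 0.71 for Fmo2 to 0.82 for Aldh3a1, and Kcne1 had -0.79. That range leaves out Fmo1 and Cyp2f2, for which it was not computed. The count of 10 was 0 with the wave and linear time as covariates, with the muscle and adipocyte covariates, or without ZT2, ZT14, ZT26 or ZT50, where 1004, 1883, 1473, 888, 1293 and 1826 genes had an unadjusted p under 0.05 in limma. It was 2 without ZT6, 4 without ZT42, 5 without ZT18, 6 without ZT10, ZT22 or ZT30, and 5 with arrays centred on their medians. With another protease as the axis it was 0 for Cma1, 26 for Mcpt4 and 0 for Tpsb2.

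Of 25 further mast cell genes with a probe, 18 were above the filter, and 0 of 18 were called in limma with Cpa3, for the 24 h wave or for dark against light. At an unadjusted p under 0.05, 5 of 18 had a positive and 1 a negative slope on Cpa3, 2 a wave and 3 a difference between dark and light. Of all genes, 7.31% had such a positive slope, 2.46% a negative one, 9.54% a wave and 12.4% a difference between dark and light. These shares also stand beside the counts of the lists that follow. Their r with Cpa3 ran from -0.56 to 0.75 with a median of 0.30, and the mean of the list had r = 0.77. The highest was Papss2 (0.75), which makes the sulfate donor for heparin, and next to it stood the lipoxygenase Alox5 (0.67), the amine oxidase Maob (0.67), the serotonin transporter Slc6a4 (0.64) and the secretagogue receptor Mrgprb2 (0.54). The lowest was Slc45a3 (-0.56). The mucosal-type proteases Mcpt1 and Mcpt2 were below the filter. Of the IgE receptor and Kit signalling list, 15 of 17 were above the filter, 0 were called in the same 3 tests (0 with Cpa3, 1 for the wave and 0 for dark against light at an unadjusted p under 0.05) and the median r was 0.24 and that of the list mean 0.41, with the shared gamma chain Fcer1g at 0.31 and Kitl, the ligand of Kit, at 0.42. Of 7 genes of histamine storage, breakdown and receptors, 4 were above the filter and 0 were called (0, 0 and 1 at an unadjusted p under 0.05 in the same order), and Slc18a2, the granule histamine transporter, had r = 0.32. The median r of the 4 was 0.32 and the r of their mean 0.34. Of the 11 lineage factors, all above the filter, 0 were called in those tests (1, 0 and 3 at an unadjusted p under 0.05), the median r was 0.37 and that of the list mean 0.64, and Mitf stood lowest at -0.46. For the wave of the first against the second day, limma called 1 of the 18 further mast cell genes, the granzyme Gzmb (adjusted p = 0.0479), and 2 of the 11 lineage factors, Gata1 (adjusted p = 0.047) and Tal1 (adjusted p = 0.0439), where 2.93% of all genes passed. The settings and left-out pools given above that called 0 genes could not call these 3 either, so they are no separate check of these genes. Their fitted peaks were at 9.75, 10.5 and 11.35 h on day 1 and at 18.5, 17.8 and 18.5 h on day 2, in that order.

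Mean levels of some marker lists of other cell types moved with Cpa3 as well, and their part in its pattern was not tested. The mean of the T and NK cell list, over the 7 of 11 genes above the filter, had r = 0.78 with Cpa3. The median r of those single genes was 0.41. All 11 with a probe summed to 6280 to 7891 in dark pools and 6053 to 7083 in light pools. The basophil list mean had r = 0.65 with Cpa3 and a median r of 0.43, over the 4 of 7 genes above the filter. The defining basophil markers had lower values, with r = 0.18 for Prss34, 0.17 for Mcpt8 and 0.03 for Cd200r3. Mcpt8 and Cd200r3, below the filter, are not in that mean. Sums over all 7 were 2820 to 3359 in dark pools and 2821 to 3212 in light pools. The mean of Schwann cell and nerve genes, 6 of 7 above the filter, had r = 0.67 and a median of 0.27. All 7 summed to 12560 to 15680 in dark pools and 12790 to 15070 in light pools. Adipocyte genes had 0.53 and a median of 0.40 (41770 to 47420 in dark pools, 39960 to 47360 in light pools). Muscle had -0.11 and melanocytes -0.20. With the muscle and adipocyte means as covariates, the r of Cma1 with Cpa3 was 0.86, that of Hdc 0.73, Tpsb2 0.72 and Mcpt4 0.60. The mean of the melanocyte list had r = 0.49 with Kit. Of its defining markers, the pigment enzyme Tyr had 0.75, Tyrp1 0.33, Dct 0.30 and Pmel 0.13 with Kit. Mitf, a factor of both melanocytes and mast cells, had 0.53. The melanocyte markers summed to 25800 to 29000 in dark pools and 25770 to 29490 in light pools.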

How the data were processed

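The 13 samples were Affymetrix whole-transcript arrays with 1 colour, each carrying 1 pool of 3 mice. The deposited values hold linear probe intensity. Tools named by the submitters' processing notes are PLIER 2.0 and Affymetrix Expression Console 1.1.1, whose roles are not stated. Scaling between arrays and a genome build are not given in the sources used here, and the number of arrays limits the precision.

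Of 35557 probes, 21789 had 1 gene symbol in the platform annotation, 1621 several and 12147 none. Values were converted to log2(intensity + 16), on which scale folds understate the change of dim genes. The filter on low values was the 25th percentile of the probe means, and the highest-mean probe stood for a gene. Tests used limma 3.58.1 (R 4.3.3) over all 16322 genes kept, with moderated statistics, Benjamini-Hochberg adjustment and a threshold of 0.05. The 24 h wave was a cosine and a sine with linear time as covariate, which was also the covariate for dark against light. The 2 days were compared over 12 pools, leaving out ZT50. Covariation was the slope on the log2 level of Cpa3. Permutation p-values used 100000 resamples, two-sided, which shuffled pools without regard to their time. Pools came from different mice, and the p-values reflect how pools differ, not single mice. Promoters were read from RefSeq (GRCm38.p6), and figures drawn with matplotlib 3.10.9.

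The members, gene lists and tests were chosen with earlier results of these data known. Genes named beside the members were the 12 highest and 6 lowest by r with Cpa3, passing over predicted genes, RIKEN clones, small RNAs and smell receptors. Fmo1, Cyp2f2 and single genes of the lists were chosen for naming once their values were known. The lists also covered macrophages, neutrophils, fibroblasts, endothelium, basal epidermis, the core clock and glucocorticoid targets, of which 0 genes were called with Cpa3. At an unadjusted p under 0.05 in limma, with a positive slope, the counts were 2 of 15, 1 of 5, 3 of 9, 1 of 12, 0 of 8, 3 of 14 and 4 of 11. Of all genes, 7.31% had such a slope. Their list means had r with Cpa3 of 0.34, 0.34, 0.49, 0.41, 0.34, 0.22 and 0.51, and that of liver was 0.28 (0 of 10 called, 0 unadjusted). For the 24 h wave, 7 of 14 core clock genes and 1 of 12 endothelial genes, Lyve1, were called, where 0.141% of all genes were. The scripts were tested on simulated data first. Alternatives were other scalings, pseudocounts of 1 and 64, other filters, all probes, an intensity trend, other time terms, tissue covariates, other axis genes and leaving out each pool.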

Additional observations from a re-analysis of the deposited data

Results flagged for a closer look

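Of 20 groups examined (10 genes, dark and light pools), 2 held a pool far from the others, where chance gives about 1 in 20. Fcer1a had its lowest dark pool at ZT22, 83.2 against 128.7 to 145.4 in the other dark pools, a gap of 0.732 of the group's range, in a gene below the filter. Hdc had its highest dark pool at ZT14, 329.8 against 264.6 to 286.7 in the others, a gap of 0.66 of the range.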

How the results depend on the processing

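The count of members called was 0 in every setting run of the wave, dark against light, linear change and covariation with Cpa3. The wave of the first against the second day gave 1 member, Cpa3 (difference 0.357 log2, limma adjusted p = 0.0424), with muscle and adipocyte covariates, where 14.2% of all genes passed, and 0 in its other settings. The amplitude of Cpa3, which cannot be negative, was 0.190 to 0.272 when each pool was left out and 0.194 with the covariates. Its fitted peak was at 15.95 h with the covariates, 15.42 h with quantile normalization and 14.65 h without ZT46, against 15.41 h as first fitted. With time of day as a factor there is no fitted peak. Dark minus light of Cpa3 stayed above 0 in all settings (0.220 to 0.347). The following values turned round, and the cause was not tested. For Ms4a2 they were a wave of 0.0214 peaking at 1.79 h and a dark-minus-light difference of -0.0231 with quantile normalization, an r with Cpa3 of 0.0385 by ranks and 0.0049 without ZT14 and ZT50, and an r of 0.20 with Mcpt4 in place of Cpa3. Kit had a wave of 0.0731 peaking at 10.7 h with the covariates, and Tpsab1 an r of -0.14 with the wave and linear time taken out, an alternative chosen after seeing the data. Leaving out 1 pool gave ranges across 0 for Ms4a2 in dark minus light (-0.0112 to 0.148), slope (-0.109 to 0.0398) and r with Cpa3 (-0.228 to 0.134), with its wave at 0.0282 to 0.0972. Slopes crossed 0 for Hdc (-0.0732 to 0.0127), Kit (-0.0405 to 0.0224), Cpa3 (-0.0889 to 0.0185) and Cma1 (-0.0591 to 0.0271). Dark and light pools could not be paired, because the labels number no replicates and no dark pool shares its hour with a light pool. Each time of day was sampled on both days, but the days were compared by their fitted waves, not paired by hour. The fits with day or time of day as a factor called 0 members. Brightness limits Fcer1a, Ms4a2 and Hdc most.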
